A study of Saccharomyces cerevisiae with 2 samples.

Results

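Shifted nucleosomes are positions in the budding yeast Saccharomyces cerevisiae where the centre of a nucleosome, its dyad, was mapped 40 to 80 bp apart in phosphate-starved and in phosphate-fed cells. Dyads were called as local maxima of smoothed tag density, at least 120 bp apart, on the 16 nuclear chromosomes, with density given relative to the library mean. A dyad of the starvation map was kept when its density was 2 or more and the nearest dyad of the high phosphate map, of density 1.5 or more, lay 40 to 80 bp away. This left 947 of 22443 starvation dyads. The members were thus chosen by their values in both libraries, and the densities at their dyads are descriptions, not findings.

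The starvation group was 1 library from cells moved to 0 mM phosphate, and the high phosphate group was 1 library from cells moved to 10 mM phosphate. Both cultures had first spent 3 hours without phosphate and were taken 80 minutes after the move, so the high phosphate cells had also been starved before. Both carried the alleles PHO4-MYC::TRP1 and CBF1-3HA::LEU2, which tag the transcription factors Pho4 and Cbf1. Micrococcal nuclease was used to cut chromatin, crosslinks were reversed and gel-purified mononucleosomal DNA was sequenced without an antibody, while a short sample label also mentions sonication. The starvation library held 1001229 nuclear tags (83.2 per kb) and the high phosphate library 2598022 (216 per kb), each position and strand at most once. With 1 library per condition there is no replicate, no test between conditions and no p-value, and an effect of the library and one of the condition cannot be told apart. All intervals below cover counting error only.

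A nucleosome is DNA wrapped around a histone octamer, and its position decides which bases lie in the more open linker between nucleosomes. Chromatin remodelling enzymes of the ISWI, CHD and SWI/SNF families slide or evict nucleosomes, and general regulatory factors and gene starts set the phase of arrays. In phosphate-starved yeast Pho4 enters the nucleus and activates the phosphate genes, and the promoter of PHO5, a secreted acid phosphatase, is the textbook case of nucleosome loss on induction. Positions are given as deposited, in the genome build that the labels name (sacCer1). No genome or gene annotation of that build was used here, so the sites carry no gene names and no sequence.

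Most starvation dyads had a high phosphate dyad at nearly the same place, and displaced ones were a small minority. Of the 22443 starvation dyads, 15625 (69.6%) had a high phosphate dyad within 20 bp, and these are called fixed below. Another 1297 (5.78%) were 21 to 39 bp apart. The 947 shifted ones were 4.22% (95% exact binomial interval 3.96% to 4.49%). The remaining 4574 (20.4%) had no high phosphate dyad of density 1.5 within 80 bp. Among the shifted nucleosomes, 334 lay 40 to 49 bp apart, 233 lay 50 to 59 bp, 207 lay 60 to 69 bp and 165 lay 70 to 79 bp, and the median distance was 56 bp. The number was thus lower at each longer distance, with no separate peak of displacements. Beyond 80 bp the counts stayed low until the next nucleosome along the array, with 816 dyads at 160 to 179 bp.

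The rule found displaced dyads within a single library too, and whether that level lay above or below the share between the libraries varied with tag totals and dyad density. Between a random 50% of the starvation tags and a random 50% of the high phosphate tags, the share displaced by 40 to 80 bp was 6.52% (6.28% to 6.84% over 10 draws). When the starvation library was divided at random into 2 disjoint sets of 500614 tags, 5.77% of dyads of one set were displaced by 40 to 80 bp in the other (5.54% to 5.88% over 10 draws). Between 2 such sets of the high phosphate library, of 1299011 tags each, the share was 5.49% (5.27% to 5.74%). The share between the libraries was above both. These levels come from shallower maps than the 4.22% between the whole libraries, and the high phosphate sets are deeper than the starvation sets, so tag totals were also made equal. At 1001229 tags in each map, the share was 5.98% for starvation dyads searched in high phosphate (5.81% to 6.22%) and 6.83% within high phosphate (6.65% to 6.96%). At 500614 tags in each map it was 9.23% for starvation against high phosphate (8.93% to 9.45%), 11.5% within high phosphate (11.1% to 11.8%) and 5.77% within starvation. Over all dyads, the share between the libraries thus lay below that within high phosphate at both equal totals and above that within starvation at the lower one. The rule gave displaced dyads at these levels within 1 culture, so the count of 947 does not by itself show nucleosomes that moved.

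**Figure D1:**
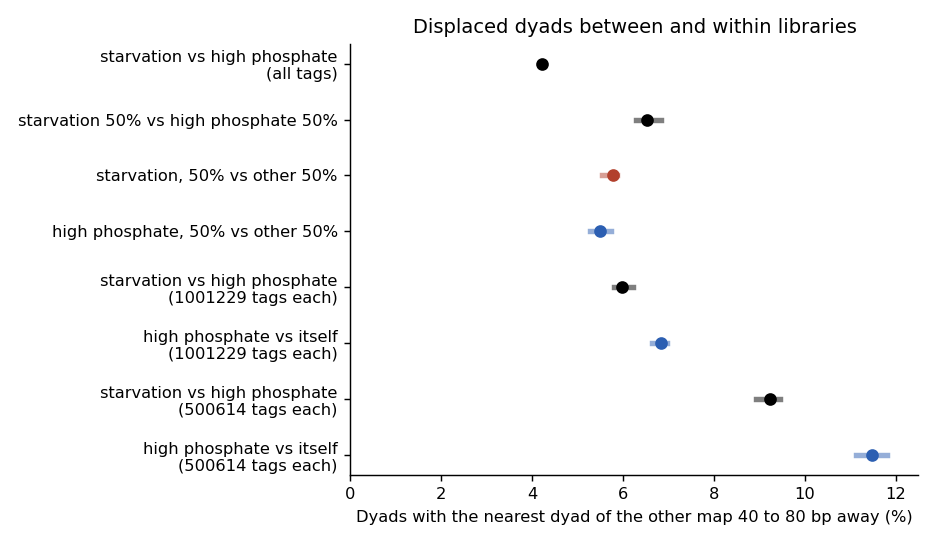
Share of dyads (horizontal axis, percent) whose nearest dyad in the second map lay 40 to 80 bp away. Points are means over 10 random draws and bars run from the lowest to the highest draw; the top row is the single value for all tags. The value between the whole libraries, 4.22%, is the lowest, and with sets of 50% of the tags the values are 6.52% between the libraries, 5.77% within starvation and 5.49% within high phosphate.

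Displacement was least common among the strongest starvation nucleosomes. Between the whole libraries, 3.90% of starvation dyads with density 2 to 3 were shifted, 4.98% at 3 to 4, 5.53% at 4 to 5, 5.49% at 5 to 6 and 2.29% at 6 or more (92 of 4014). Between the 2 sets of 500614 starvation tags the mean shares in the same classes were 5.99%, 6.26%, 7.16%, 6.59% and 3.34%. The order of the classes was the same, with the lowest share at density 6 or more in both. Between the 2 sets of 1299011 high phosphate tags it was not, with mean shares of 6.42% at density 2 to 3, 2.95% at 3 to 4, 1.14% at 4 to 5, 3.46% at 5 to 6 and 7.32% at 6 or more, the last from a mean of 30.7 dyads.

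The comparison with the level within high phosphate turned with density. Starvation dyads were taller, with 4014 of 22443 at density 6 or more, against a mean of 39.5 of 26665 in high phosphate maps of 1001229 tags. At that total, starvation dyads searched in high phosphate were displaced less often than high phosphate dyads searched in the same library at density 2 to 3, with 5.78% against 7.90%. They were displaced more often at 3 to 4 (6.73% against 4.44%), at 4 to 5 (7.43% against 2.16%) and at 5 to 6 (6.98% against 3.06%). At density 6 or more the shares were 3.86% and 6.59%, the latter from a mean of 2.6 displaced among 39.5 dyads. The ranges over draws did not overlap in any of these classes. Such ranges come from redrawing the same tags and do not cover counting error, so nothing is read from the class at 6 or more. With 500614 tags the share between the libraries was 9.87% at density 2 to 3, against 12.9% within high phosphate, and the ranges overlapped at 3 to 4. It was 10.03% against 6.998% at 4 to 5 and 9.67% against 5.13% at 5 to 6, and at 6 or more the ranges overlapped again. At this total the share between the libraries was above that within starvation in every density class. Density classes of 2 libraries need not hold the same nucleosomes, and with 1 library per condition a difference between the libraries is not one shown between the conditions.

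At the shifted sites the starvation library had a taller maximum than the high phosphate library. Starvation density at the starvation dyad had a median of 3.64 (range 2.0 to 10.2), and high phosphate density at the high phosphate dyad had a median of 2.01 (1.5 to 6.37). In tags within 20 bp of a dyad, the starvation library held a median of 14 at its own dyad and 7 at the high phosphate dyad. The high phosphate library held a median of 20 at its own dyad and 13 at the starvation dyad. In both libraries the site of the other condition therefore usually held tags as well. Fixed dyads had similar starvation density (median 3.51) but higher high phosphate density (median 2.50).

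The densities that the rule used are given here as a description of the members. Starvation density was at least 2-fold above high phosphate density at the starvation dyad in 688 of 947 members (72.7%), where 48.9% of all starvation dyads passed this fold. At the high phosphate dyad, high phosphate density was at least 2-fold above starvation density in 159 (16.8%). With their nearest high phosphate dyad, 5.20% of all starvation dyads passed this fold. High phosphate density was the lower of the 2 there in 397 of 947 members, and in 14494 of all 22443 starvation dyads. Both contrasts reached 2-fold in 75 members (7.92%), against 3.94% of all starvation dyads. The 3.94% mixes fixed dyads (0%) and those with no high phosphate dyad within 80 bp (17.7%). The rule used these densities, so nothing is read from these shares. With equal totals of 1001229 tags, the share of displaced dyads with both contrasts at 2-fold was 11.9% between the libraries (10.65% to 12.99%). It was 7.57% within high phosphate (6.99% to 8.08%). With 500614 tags it was 23.3% between the libraries (22.2% to 24.8%). At that total it was 24.1% within high phosphate (an overlapping range) and 15.3% within starvation (14.2% to 17.1%). The share between the libraries was above that within starvation at the lower total, and above that within high phosphate at the higher total only. These shares likewise come from densities that the rule used and varied with tag totals, so nothing is read from their order. Within its own library, the starvation maximum stood at least 2-fold above the starvation density at the other site in 379 members. The high phosphate maximum did so in 176, with 68 passing in both. Of all 22443 starvation dyads, 2452, 2434 and 875 passed, and 0 of the fixed dyads, whose 2 sites lie within 20 bp. A further local maximum of any density lay within 20 bp of the starvation dyad in the high phosphate map for 308 members, and within 20 bp of the high phosphate dyad in the starvation map for 249. Over all starvation dyads these counts were 19294 and 19479, which include all 15625 fixed dyads by definition. For 495 members, and for 2032 of all starvation dyads, neither map had one.

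**Figure D2:**
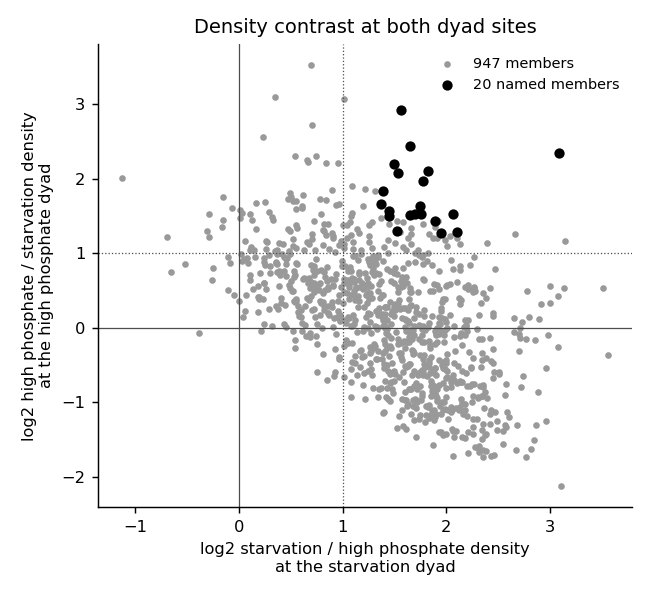
Each point is 1 shifted nucleosome. The horizontal axis is the log2 of starvation density divided by high phosphate density at the starvation dyad and the vertical axis the log2 ratio of high phosphate over starvation density at the high phosphate dyad; solid lines mark 0 and dotted lines 2-fold. Most points lie to the right of 0, while 397 of 947 lie below 0, and 75 pass both dotted lines.

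Tags that took no part in the calling showed a smaller difference in balance between the 2 sites. Members were called from a random 50% of the tags of each library and counted in the other 50%, which come from the same cultures and libraries and are no replicates. Over 10 draws this gave a mean of 1576 members. At a member the held-out starvation tags averaged 5.36 within 20 bp of the starvation dyad and 4.15 within 20 bp of the high phosphate dyad, a ratio of 1.29 (range 1.24 to 1.32 over draws). The held-out high phosphate tags averaged 7.56 at the starvation dyad and 8.19 at the high phosphate dyad, a ratio of 0.923 (0.899 to 0.947). The ratio between these ratios was 1.40 (1.34 to 1.45). With equal subsets of 500614 tags it was 1.36 (1.30 to 1.40), with held-out high phosphate tags then more frequent at the starvation dyad, 3.14 against 2.70. Within one library the same steps gave 0.997 (0.970 to 1.02) for high phosphate subsets of that size and 1.02 (0.972 to 1.06) for starvation subsets of 250307 tags. The balance of tags between the 2 sites therefore differed between the libraries on average. In 25.01% of members (24.0% to 27.5%) both held-out counts favoured the site of their own library. With equal subsets of 500614 tags this share was 20.5% across the libraries and 13.9% within high phosphate. Within starvation it was 11.8%, from subsets of 250307 tags with means of 2.33 and 2.26 tags at the own sites. Only the 20.5% and the 13.9% come from equal totals, so the other shares are not compared with them.

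The mean profile of held-out tags had no single displaced peak. In the tags used for calling, the starvation density was 5.06 at the starvation dyad and 1.85 at 60 bp towards the high phosphate dyad, and the high phosphate density was 1.47 and 2.44 at these points. In the held-out tags the starvation density was 3.25 and 2.21. The held-out high phosphate density was 1.78 at the starvation dyad and 1.75 at 60 bp. Held-out high phosphate tags were thus spread about evenly over both positions, and starvation tags lay at both with more at their own.

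**Figure D3:**
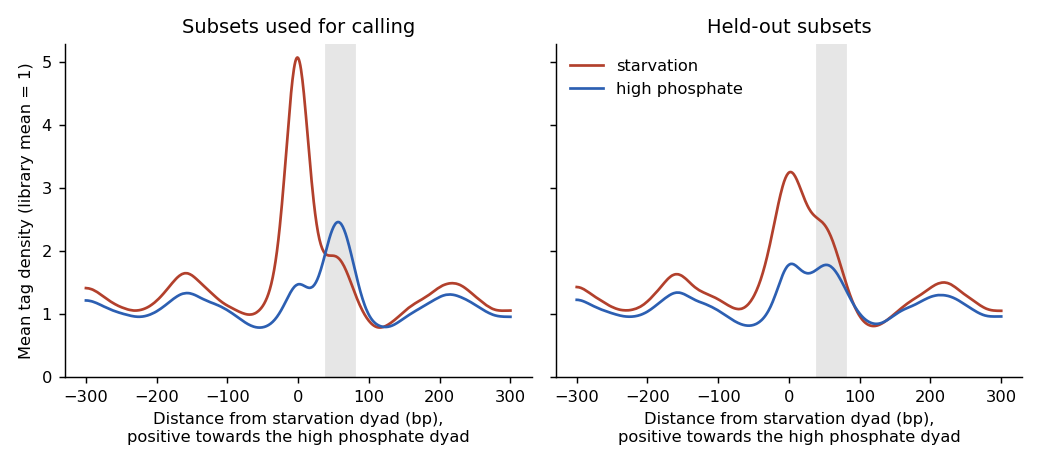
Mean tag density (vertical axis, library mean = 1, smoothed with an SD of 10 bp) around the starvation dyads of members called in random sets of 50% of the tags, with the high phosphate dyad to the right (grey, 40 to 80 bp). Left, the tags used for calling, where the high phosphate line reaches 2.44 at 60 bp; right, the tags not used, where it is 1.78 at 0 bp and 1.75 at 60 bp while starvation is 3.25 and 2.21.

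Members were often not called again from part of the data. Of members called from 50% of the tags of each library, 7.10% (6.19% to 7.77% over 10 draws) were called within 20 bp from the other 50%. Of the 947 members, 42.9% (40.02% to 44.7%) were called from 50% of the tags. Over all 20 such reduced maps the median member was found in 8, 349 (36.9%) were found in at least 10, and 3 were never found. Split by strand, 323 members were also called from plus-strand tags alone, 336 from minus-strand tags alone and 73 from each. From neither strand alone were 361 (38.1%) called. The same counts for fixed or all starvation dyads are not given here.

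Found in all 20 reduced maps were 5 members, singled out after their values had been seen. On chromosome 14 the starvation dyad at 267796 had 23 starvation tags within 20 bp, against 13 high phosphate tags. Its high phosphate dyad at 267850 had 3 starvation tags and 25 high phosphate tags. The log2 contrast, the starvation balance between the 2 sites over the high phosphate balance, was 3.67 (95% exact interval 1.75 to 6.44). On chromosome 2 the starvation dyad at 564083 had 18 starvation and 7 high phosphate tags, and the high phosphate dyad at 564143 had 6 and 22, with a log2 contrast of 3.09 (1.22 to 5.33). On chromosome 16 the starvation dyad at 583465 had 17 starvation and 11 high phosphate tags, and the high phosphate dyad at 583403 had 4 and 26, with a log2 contrast of 3.16 (1.27 to 5.60). On chromosome 10 the starvation dyad at 462218 had 25 starvation and 17 high phosphate tags, and the high phosphate dyad at 462154 had 3 and 26, with a log2 contrast of 3.46 (1.61 to 6.20). The fifth, on chromosome 6 with dyads at 30279 in starvation and 30215 in high phosphate, had 14 and 19 tags at the first and 7 and 26 at the second, and its interval included 0 (1.39, −0.28 to 3.26). At all 5 sites each library had more tags at its own position, which the choice of members favours. Being found every time did not require a strong contrast.

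The 20 named members are the 10 in each direction with the largest exchange, ranked by the smaller of their 2 log2 density contrasts, which ran from 1.27 to 2.34. They are extremes of 947, and their intervals do not allow for that choice. At the starvation dyad they held 8 to 25 starvation tags (median 13) and 3 to 17 high phosphate tags (median 8.5). At the high phosphate dyad they held 0 to 6 starvation tags (median 2) and 15 to 43 high phosphate tags (median 18.5). The contrast thus rested on few tags, above all in starvation. The first of all lay on chromosome 12, where the starvation dyad at 29187 had 16 starvation tags, against 3 high phosphate tags. Its high phosphate dyad at 29261 had 1 starvation tag and 17 high phosphate tags. The densities were 3.66 in starvation and 0.43 in high phosphate at the first site, and 0.32 and 1.63 at the second, and it was found in 16 of the 20 reduced maps. Next came chromosome 6, where the starvation dyad at 67278 had 19 starvation and 14 high phosphate tags and the high phosphate dyad at 67347 had 1 and 18. Here high phosphate had tags at both sites, and the exchange lay mostly in starvation.

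Among displacements to lower coordinates the first was on chromosome 12, with 14 starvation and 13 high phosphate tags at the starvation dyad at 173194. The high phosphate dyad at 173120 had 0 starvation tags and 15 high phosphate tags. On chromosome 13 the starvation dyad at 859937 had 16 starvation and 13 high phosphate tags, and the high phosphate dyad at 859858 had 1 and 31. On chromosome 11 the starvation dyad at 380913 had 12 starvation and 5 high phosphate tags, and the high phosphate dyad at 380839 had 6 and 43, the most high phosphate tags among the named sites. The other named members lay on chromosomes 4 (4 members), 7 and 10 (2 each), 9 (1), 13 (2), 15 (2) and 16 (2). For all 20 the interval of the contrast lay above 0, as it did for 449 of the 947 members (47.4%). These intervals come from the tags that chose the members, which favours values above 0, so nothing is read from the counts. Of the 20, 8 were found in at least 10 of the reduced maps.

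**Figure D4:**
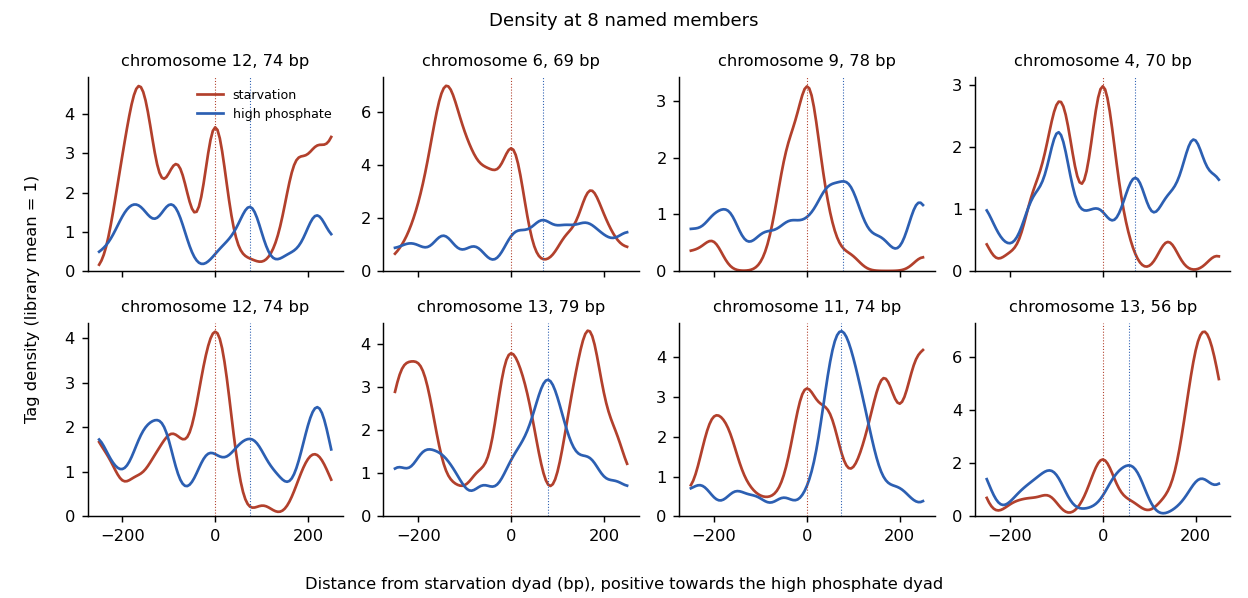
Smoothed tag density (vertical axes, library mean = 1) at the 4 named members with the largest exchange towards higher coordinates (upper row) and the 4 towards lower coordinates (lower row), turned so that the high phosphate dyad lies to the right. Dotted lines mark the starvation dyad at 0 bp and the high phosphate dyad; in the first panel the densities at 0 bp are 3.66 in starvation and 0.43 in high phosphate.

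Neither direction along the chromosome was favoured, and direction relative to genes was not examined, as no gene annotation was used. The high phosphate dyad lay at higher coordinates in 479 members (2.13% of all starvation dyads) and at lower coordinates in 468 (2.09%), which is 50.6% to the higher side (95% exact interval 47.4% to 53.8%). With plus-strand tags alone 58.4% were displaced to the higher side and with minus-strand tags alone 41.8%. Plus- and minus-strand tags were offset by 155 bp in starvation, against 142 bp in high phosphate, an offset that depends on fragment length, while tags of both libraries were moved 73 bp. With tags moved by 50% of each library's own offset the values were 51.5% from plus-strand and 47.4% from minus-strand tags. The skew of the single-strand maps was thus smaller with these distances. The map from both strands gave 937 members under the same change.

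The nucleosomes next to shifted ones were less often in place than those next to fixed ones. The next starvation dyad of density 1.5 or more, 120 to 250 bp away on either side, was found 754 times. Of these neighbours 397 (52.7%, 95% exact interval 49.0% to 56.3%) lay within 20 bp of a high phosphate dyad. For neighbours of fixed dyads the share was 75.2% (74.5% to 75.9%, n = 15818), and for neighbours of all starvation dyads 69.8%. Split by side, members had 51.8% on the side of the displacement and 53.5% on the other. Dyads with no high phosphate dyad within 80 bp had 69.0% on the side of their nearest one and 37.9% on the other. A lower share than next to fixed dyads was thus not particular to members. A high phosphate dyad cannot lie within 120 bp of the member's own, which limits where the neighbours' partners can lie. How much of the gap between members and fixed dyads comes from this was not tested. Neighbours displaced by 40 to 80 bp were also more frequent, at 4.38% in the direction of the member and 4.77% against it, where 3.47% of all neighbours were displaced in either direction. On the side of the displacement, 16 neighbours were displaced with the member and 30 towards it, and on the other side 17 were displaced with it and 6 away from it. The neighbours displaced towards the member include both members of 12 pairs that shared 1 high phosphate dyad lying between them, described below. Such a shared dyad is not a separate displacement of a neighbour against the member. The counts with a member and against it were about equal only with these pairs included. With the pairs left out, displacements with the member outnumbered those against it.

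Adjoining members formed 28 pairs and no longer run, and 2 patterns made up nearly all of them. In 13 pairs, 129 to 243 bp apart, both dyads were displaced the same way. One of them held the first named member: on chromosome 12 the dyad at 29023 was displaced by 69 bp and the dyad at 29187 by 74 bp. At the dyad at 29023 there were 20 starvation and 16 high phosphate tags, and at its high phosphate dyad at 29092 there were 10 and 20, a weaker contrast whose interval included 0 (1.28, −0.28 to 2.95). On chromosome 14 the dyads at 703916 and 704092 were displaced by 57 and 55 bp and were found in 15 and 11 of the reduced maps. On chromosome 11 the dyads at 507899 and 508068 were displaced by 48 and 53 bp, with log2 contrasts of 2.49 (0.43 to 5.04) and 1.73 (0.098 to 3.54). In the other 15 pairs the directions differed, and 12 of them shared 1 high phosphate dyad that lay between the 2 starvation dyads. On chromosome 1, for example, starvation dyads at 187008 and 187142 were displaced by 55 bp to the higher and 79 bp to the lower side. The reverse arrangement, 1 starvation dyad with a high phosphate dyad 40 to 80 bp away on each side, occurred 27 times.

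Called dyads lay further apart around shifted nucleosomes than around fixed ones in both maps. The next starvation dyad lay a median of 308 bp ahead, on the side of the displacement, and 290 bp behind, against 244 and 249 bp for fixed dyads. In high phosphate the next dyad from the member's high phosphate dyad lay 223 bp ahead and 256 bp behind, against 186 and 193 bp for fixed dyads. For dyads with no high phosphate dyad within 80 bp, the starvation medians were 226 bp ahead and 292 bp behind. Their high phosphate medians were 227 and 537 bp, the last lengthened by the choice of that class. Wider spacing than at fixed dyads was thus not particular to members. These distances lengthen where a neighbour is not called, and the choice of a displaced partner itself shortens the high phosphate distance ahead. In starvation the wider gap lay on the side of the displacement in 511 of 941 members (54.3%), against 52.0% for fixed dyads.

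The occupancy ratio at shifted sites had a median near that of all starvation dyads, which mix unlike classes. Within 73 bp of the midpoint of the 2 dyads, members held a median of 29 starvation tags and 48 high phosphate tags. With tags scaled to nuclear totals, the median log2 ratio (starvation over high phosphate) was 0.67, against 0.65 for all starvation dyads. It was 0.28 for fixed ones and 1.55 for those with no high phosphate dyad within 80 bp. For this last class the window was centred on the starvation dyad itself. The dyads were chosen for high starvation density, so the sign of these ratios is not a result. Starvation was at least 2-fold higher at 322 members (34.0%), where 39.7% of all starvation dyads passed, and at least 2-fold lower at 1 member (0.106%), where 0.454% did. The 39.7% likewise mixes fixed dyads (29.6%) and those with no high phosphate dyad within 80 bp (76.7%). Members lay between these 2 classes, nearer to the fixed ones. A change in the number of cells with a nucleosome and in its recovery cannot be told apart here.

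Shifted nucleosomes were spread over all 16 nuclear chromosomes. Their share of the starvation dyads was 5.45% on chromosome 12 (108 of 1982, 95% exact interval 4.49% to 6.54%), 2.45% on chromosome 3 (17 of 693, 1.44% to 3.90%) and 3.09% on chromosome 15 (61 of 1977, 2.37% to 3.95%). On the other 13 chromosomes it ran from 3.52% to 4.88%, and each of their intervals included 4.22%. Within 5 kb of the outermost tags of a chromosome lay 8 of the 947 members and 87 of all 22443 starvation dyads. Within 200 bp of a stretch of more than 400 bp without tags in either library lay 2 members (0.211%) and 85 of all starvation dyads (0.379%).

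**Figure D5:**
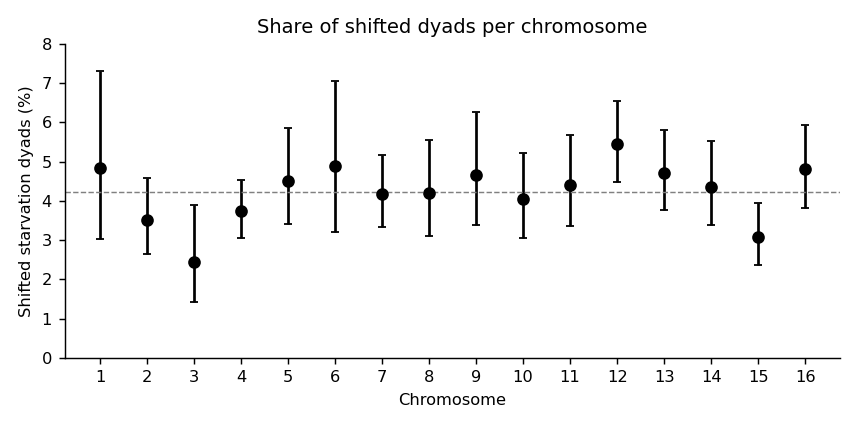
Share of starvation dyads that were shifted (vertical axis, percent) on each nuclear chromosome, with 95% exact binomial intervals for counting error. The dashed line is the value over all chromosomes, 4.22%; chromosome 12 is highest at 5.45% and chromosome 3 lowest at 2.45%.

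The sites just inside and just outside the limits of the rule were as follows. At a distance of exactly 40 bp there were 40 members, with a median smaller log2 contrast of 0.014, and just outside, at 39 bp, there were 30 dyads, with 0.0041. At 80 bp there were 8 members, with a median starvation density of 4.04 and a median smaller contrast of −0.028, and at 81 bp 17 dyads, with 2.74 and 0.49. Starvation density was within 0.1 above its limit at 53 members, and 65 further sites lay within 0.1 below it. High phosphate density was within 0.1 above its limit at 91 members, and another 105 sites lay within 0.1 below it.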

How the data were processed

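Per the labels' protocols, tags of gel-purified mononucleosomal DNA from an Illumina Genome Analyzer were placed on the yeast genome release sacCer1. The aligner is not given in the sources used here. The deposited files list the chromosome, position and strand of each tag, with no header, level or score, and no repeated row in either file. Minus-strand positions were taken as 5′ ends of reads. Positions were used as deposited; their first base may be numbered 0 or 1.

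Tags were moved 73 bp towards the fragment centre, smoothed with a Gaussian SD of 20 bp (Python 3.11.15, scipy 1.17.1) and divided by the library mean. Random draws used 10 fixed seeds. A pseudocount of 0.5 was used in log2 ratios of tags, and intervals are exact (Clopper-Pearson, or conditional for a ratio of ratios) and cover counting error only. The rule was tested on simulated libraries of widely spaced dyads with no background tags. That setting is simpler than the data and gives no error rate for them. Named members are the 10 per direction with the largest smaller contrast. Members and measures were chosen with earlier results of these data known. Sequence composition was not analysed here.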

Additional observations from a re-analysis of the deposited data

How the results depend on the processing

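No paired analysis was possible because there was only 1 library per condition, and no library could be left out. The count of 947 (4.22%) moved with nearly every limit. It was 471 (2.76%) with a Gaussian SD of 30 bp, 482 (2.15%) with density 2 in both libraries, 307 (2.20%) with 3 and 2, and 613 (2.73%) at 50 to 80 bp. It was 1716 (6.86%, 58.4% to the higher side) from plus-strand and 1766 (7.03%, 41.8%) from minus-strand tags. With tags moved by each library's own offset, an alternative chosen after seeing the data, these were 1616 (6.46%) and 1710 (6.81%). The share was 6.10% with high phosphate thinned to the starvation total, 5.98% over 10 such draws, 9.23% at 50% of that total, 4.51% and 3.84% with dyads at least 100 bp or a nucleosome length apart, and 2.86% with the rule turned round (685 of 23920 high phosphate dyads). The level within high phosphate, 5.49%, was 6.83% and 11.5% at equal subsets. Correction for filled positions gave 4.27%. Of 80 alternative values for the named contrasts, 0 changed sign and 1 left its interval. These values recount the tags that chose the named members, which favours the same sign, so nothing is read from them. Depth limits the maps: 41 bp held on average 3.41 starvation and 8.85 high phosphate tags.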
